A study of Mus musculus with 2 samples.

Results

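Mid-villus absorptive enterocytes are the fat, sugar and peptide absorbing cells of the middle of the intestinal villus, and 318 of the 12652 cell barcodes of the series were assigned to them: 152 of 6270 in the library that retained Mdm2 (Tg) and 166 of 6382 in the library with acute Mdm2 loss (FMTg). Barcodes first had to look like intact absorptive epithelium, with at least 3000 UMIs (unique molecular identifiers, 1 per captured RNA molecule), at most 25% mitochondrial UMIs, at least 1 UMI of the epithelial gene Epcam, 0 of the leukocyte gene Ptprc, fewer than 5 of the goblet gene Fcgbp, fewer than 3 of the tuft gene Dclk1, and at least 1% of UMIs from Apoa1, Fabp1, Fabp2 and Rbp2. This left 777 barcodes, 378 in Tg and 399 in FMTg. Each was scored for the villus tip (Ada, Nt5e, Slc28a2, Enpp3, Clca4a), the middle (Slc5a12, Pck1, Lct, Slc13a2, Pdzk1) and the lower villus (Car4, Ccl25, Reg3a, Aldh1a1, Maoa), as the genes' share of UMIs divided by its mean over the 777 barcodes, and a barcode belonged to the class with the largest score. The measured levels of these genes therefore chose the members, and their values below are a description.

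The study put 1 small intestine of each genotype through 10x Genomics 3′ single-cell RNA sequencing, to compare intestine under acute p53 activation with intestine that keeps Mdm2. Both mice were C57BL/6j, 60 days old, and both received a single dose of tamoxifen (6 mg per 40 g body weight) 24 hours before the fresh tissue was dissociated. Tg was Mdm2+/- Cag-CreERTg and FMTg was Mdm2FM/- Cag-CreERTg, so both carried 1 Mdm2 null allele and the tamoxifen-activated Cre, which the broadly active Cag promoter drives and which is not limited to the epithelium. The labels do not spell out the FM allele. With 1 library of each genotype, no difference between them has a replicate check and none was tested. Ratios are log2 of CPM in FMTg over Tg, where CPM is a gene's UMIs summed over members and scaled by their total UMIs to the standard count scale, with exact 95% intervals that cover counting error only, and a gene was called higher or lower at 1.5-fold or more (0.58 on the log2 scale).

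Enterocytes are born in the crypt, climb the villus over a few days and are shed at its tip, and they change their gene programme on the way: cells low on the villus are rich in antimicrobial proteins, those in the middle in transporters and digestive enzymes, and those at the tip in purine-handling enzymes and cell adhesion genes. p53 is a transcription factor that halts the cell cycle or triggers cell death after damage. Mdm2, itself a p53 target, marks p53 for degradation, and its loss leaves p53 active.

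The 5 genes that defined the middle of the villus have their main roles in nutrient transport and metabolism. Lct (chromosome 1, 128284756 to 128328318, minus strand, GRCm38) encodes lactase, which splits milk sugar, and stood at 576 CPM in Tg members and 615 in FMTg members. Pdzk1, a scaffold that holds transporters in the brush border, stood at 230 and 210 CPM, Slc5a12, a lactate and monocarboxylate carrier, at 190 and 150, and Slc13a2, a citrate and succinate carrier, at 130 and 97.2. Pck1 (chromosome 2, 173153048 to 173159273, plus strand), the committed enzyme of gluconeogenesis, stood at 181 CPM in Tg members and 62.0 in FMTg members, a log2 ratio of -1.55 (-1.75 to -1.34). The ratios of the other 4 score genes lay between -0.42 for Slc13a2 and 0.09 for Lct. All 5 genes helped to choose the members, so these ratios are a description.

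Together the 5 genes reached 1307 CPM in Tg members and 1135 in FMTg members, against 647 and 493 CPM in tip barcodes, 464 and 259 in lower-villus barcodes, and 21.8 and 16.9 in leukocyte barcodes (Ptprc present, Epcam absent). Each of the 5 was found in both libraries, and the label of the class was kept as the rule gave it. These genes chose the members, so their levels do not check the label. With every barcode thinned to 3000 UMIs, 80.3% of Tg members (122 of 152) and 84.3% of FMTg members (140 of 166) had a UMI of Lct, against 3.93% and 2.82% of leukocyte barcodes. Pck1 was seen in 32.2% of Tg members (exact interval 24.9 to 40.3) and in 11.4% of FMTg members (7.03 to 17.3), against 1.31% and 0.522% of leukocyte barcodes. Unthinned, the Pck1 shares were 77.0% and 44.0%, at median depths of 25937 and 21699.5 UMIs per member and 4727.5 and 4524 per leukocyte barcode. Leukocyte barcodes numbered 764 and 958, and 0 members fell below 3000 UMIs.

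The promoter sequences of these genes are shown with short motifs of factors known to act in enterocytes, because the summed share of these genes defined the class. RefSeq windows of 300 bases, from 250 before to 50 after a transcription start (build GRCm38.p6), were present for 4 of the 5 genes, and the motifs searched on both strands were the HNF1 half-site GTTAAT, the GATA site AGATAA and the HNF4 element CAAAGTCCA. Capitals mark the motif found, on whichever strand, and positions count from the start as 0. The Pck1 window holds an HNF1 half-site at -192 to -187 and a GATA site at -169 to -164, the Lct window a pair of GATA sites at -101 to -96 and -90 to -85, and 1 of the 2 Pdzk1 windows an HNF4 element at 14 to 22. The other Pdzk1 window (chr3:96831921-96832220) and the Slc13a2 window held none of these 3 motifs. Among all 32851 windows, 7.10% held the HNF1 half-site, 11.2% the GATA site and 0.475% the HNF4 element, and no printed motif overlaps another.
Pck1, chr2:173152823-173153122, plus strand: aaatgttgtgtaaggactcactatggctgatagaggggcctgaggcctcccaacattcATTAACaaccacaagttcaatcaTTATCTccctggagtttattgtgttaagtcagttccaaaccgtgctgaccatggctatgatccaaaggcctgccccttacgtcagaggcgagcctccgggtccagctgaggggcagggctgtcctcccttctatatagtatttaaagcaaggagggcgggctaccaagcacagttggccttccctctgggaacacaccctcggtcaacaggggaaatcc
Lct, chr1:128328269-128328568, minus strand: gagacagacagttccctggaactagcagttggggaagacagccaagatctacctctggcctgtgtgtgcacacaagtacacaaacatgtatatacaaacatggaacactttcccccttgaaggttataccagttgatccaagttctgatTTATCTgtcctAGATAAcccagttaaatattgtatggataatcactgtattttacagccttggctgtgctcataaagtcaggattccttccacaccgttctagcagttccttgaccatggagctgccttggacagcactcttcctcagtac
Pdzk1, chr3:96829815-96830114, plus strand: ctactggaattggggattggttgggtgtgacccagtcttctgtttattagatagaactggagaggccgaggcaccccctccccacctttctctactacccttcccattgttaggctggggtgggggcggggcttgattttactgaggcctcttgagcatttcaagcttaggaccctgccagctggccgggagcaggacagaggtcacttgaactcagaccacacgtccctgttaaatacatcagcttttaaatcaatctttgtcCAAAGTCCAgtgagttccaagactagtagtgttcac

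The share of absorptive barcodes in the middle class was close between libraries: 40.2% in Tg (exact interval 35.2 to 45.3) and 41.6% in FMTg (36.7 to 46.6). The neighbouring classes were not so alike. Tip barcodes made up 7.94% in Tg and 37.3% in FMTg, and lower-villus barcodes 51.6% and 21.1%. These shares follow from scores of the same genes that were compared, with means taken over both libraries, and say how the barcodes were sorted rather than how many cells the tissue held.

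**Figure D1:**
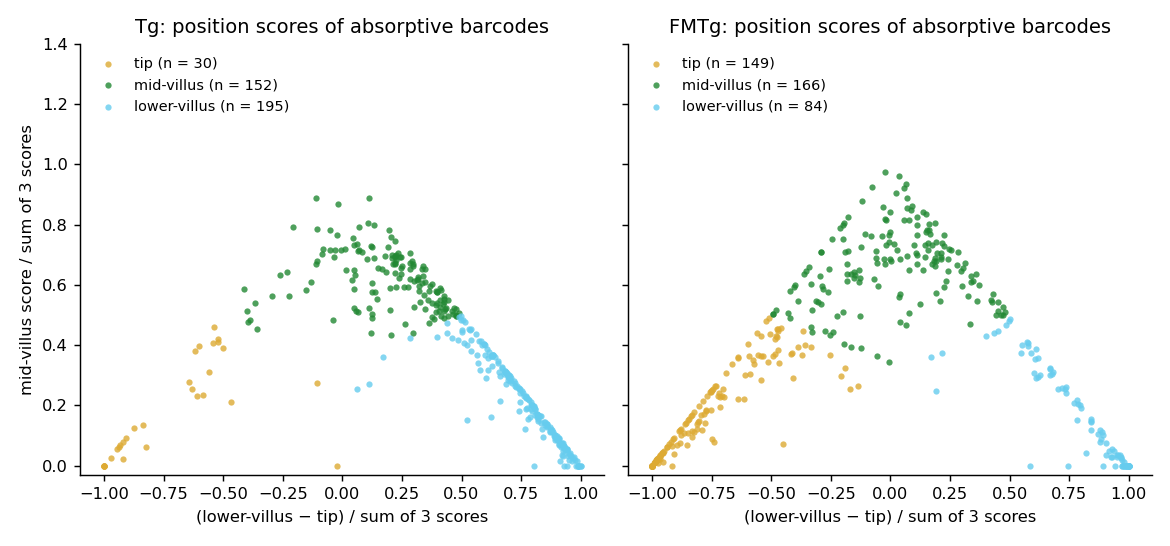
Each point is 1 of the absorptive barcodes, Tg on the left and FMTg on the right. The horizontal axis is the lower-villus score minus the tip score over the sum of the 3 scores, the vertical axis is the mid-villus score over that sum, and colour gives the class; the 152 Tg members lie mostly towards the lower-villus side and the 166 FMTg members spread to both sides.

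Members of the 2 libraries did not sit at the same place between the neighbouring classes. The mid-villus score had a median of 1.70 in Tg (0.402 to 4.13) and 1.48 in FMTg (0.286 to 3.42). The lower-villus score of members had a median of 0.697 in Tg and 0.362 in FMTg, and the tip score one of 0.151 and 0.207. Thus 125 of 152 Tg members but 88 of 166 FMTg members had a lower-villus score above their tip score, and the reverse held for 27 and 78, as the plot of the 3 scores shows. This lean moves with each comparison of the libraries below. Ratios in tip-leaning or lower-leaning members are given for some genes and lists only. For the others, how far the ratio depends on this lean is not shown. At the border of the class, 16 Tg and 20 FMTg members were within 1.1 times of their next score, and 7 non-members of each library came within 1.1 times of entering. Over all members the mid-villus score was a median 1.90 times the next score in Tg and 2.61 times in FMTg.

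Members were deep: Tg members had 3194 to 85292 UMIs and FMTg members 3226 to 80892. Medians of 4165 and 3819.5 genes were found per member, with a median mitochondrial share of 19.0% and 19.7%. In all, 4380487 and 4206964 UMIs were summed, from libraries of 54013005 and 49805718. The libraries shared 14 barcode sequences, of which 0 were members. No doublet caller was used to choose members.

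Markers of other cells were not equal between the libraries. Leukocyte and stromal lists were low: the 9 T and NK genes summed to 49.1 CPM in Tg and 34.5 in FMTg, against 24549 and 21499 in leukocyte barcodes, the myeloid genes to 9.36 and 6.42, and the stromal genes to 1.14 and 1.90, with Csf1r, Adgre1, Col1a1 and Dcn at 0 in both. The crypt list summed to 22.6 and 29.2 CPM, from 99 UMIs in Tg and 123 in FMTg, of which Axin2 held 92 and 114. Its stem cell genes Lgr5 and Ascl2 were at 0 in both libraries, and its other genes had at most 4 UMIs in either library. Goblet genes, 7 of 7 detected, summed to 366 CPM in Tg and 684 in FMTg, with Tff3 at 125 and 555 CPM but Zg16 at 182 and 71.5. Per member the goblet list went the other way, with a median of 272 CPM in Tg and 201 in FMTg, while the highest members reached 6554 and 12024 CPM, and 9 Tg and 27 FMTg members had at least 0.1% of their UMIs in it. Enteroendocrine genes, 7 of 8 detected in each library, summed to 76.5 CPM in Tg and 745 in FMTg. Of these UMIs 72.8% and 39.8% lay in a single barcode, and the hormone gene Cck stood at 5.02 and 472 CPM. At least 5 UMIs of the enteroendocrine list were found in 3 Tg and 5 FMTg members.

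Across the 2 neighbours, 44 of 7285 genes, or 0.604%, were at least 1.5-fold higher in mid-villus barcodes than in both tip and lower-villus barcodes in each library, beside the score genes. These values describe the class, since the same barcodes were sorted on their RNA. By the smallest of its 4 margins Vwa1, an extracellular matrix gene, led with 1.22 on the log2 scale, at 44.5 CPM in Tg members and 31.1 in FMTg members. Mbl2, which encodes mannose-binding lectin C, a secreted protein that tags microbes, followed with 1.16 at a far higher level. Mbl2 stood at 748 CPM in Tg members against 336 in the tip and 310 in the lower villus, and at 513 CPM in FMTg members against 107 and 117. Its RNA was uneven within the class, from 0 to 5033 CPM per member in Tg with a median of 208, and from 0 to 9326 with a median of 179 in FMTg. Ace, the angiotensin-converting enzyme, a brush border peptidase, was steadier. It stood at 757 CPM in Tg members against 457 in the tip and 370 in the lower villus, and at 910 CPM in FMTg members against 471 and 288. Ace was found in 152 of 152 and 166 of 166 members.

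Among the other genes that peaked in the middle, Lap3, a leucine aminopeptidase, was higher than in the tip by 0.95 (Tg) and 1.18 (FMTg) on the log2 scale, and higher than in the lower villus by 0.79 and 0.91. Slc16a10, a carrier of aromatic amino acids, was higher than in the tip by 0.78 and 0.74, and than in the lower villus by 0.89 and 1.39. G6pc, the last enzyme of gluconeogenesis, stood at 54.6 CPM in Tg members against 20.6 in the tip and 30.1 in the lower villus, and at 34.5 CPM in FMTg members against 13.4 and 15.2. Aspa, aspartoacylase, stood at 240 and 226 CPM in members, and Dio1, a thyroid hormone deiodinase, at 74.6 and 32.3. The 15 genes named by their smallest margin also held Slc25a36, a mitochondrial nucleotide carrier, Nr1d1, a clock repressor, and Nek6, Fam118a, Tha1, Prr15 and Unc5cl, with several tip counts in Tg below 10 UMIs.

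**Figure D2:**
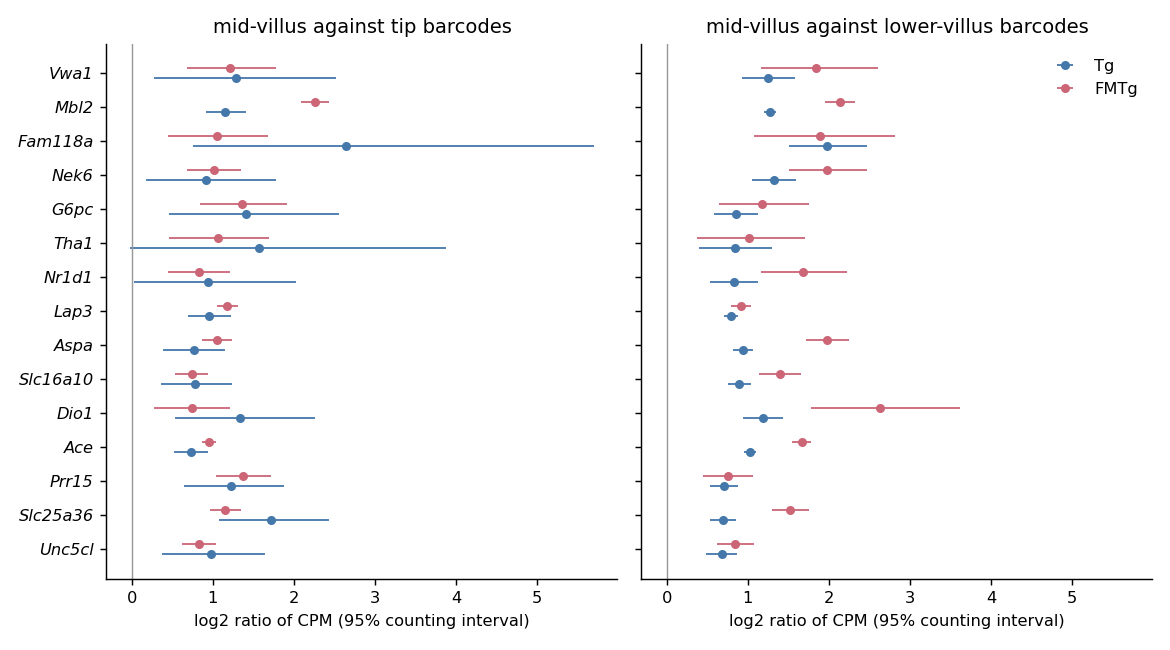
For 15 genes named by their margin, points give the log2 ratio of CPM in mid-villus barcodes over tip barcodes and over lower-villus barcodes in each library, with bars for 95% counting intervals. Mbl2 lies between 1.16 and 2.26, Ace between 0.73 and 1.66, and all points lie above 0.

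By list, brush border peptidases and amino acid carriers leaned most to the middle. Of 25 measured genes, 16 were above 0 in all 4 ratios of the middle to its neighbours, and 6 passed 1.5-fold in all 4. Their median ratio was 0.46 to the tip and 0.75 to the lower villus in Tg, and 0.69 and 0.98 in FMTg, beside medians over all genes of 0.11 and 0.13 in Tg and 0.17 and 0.21 in FMTg. No other list had more than 2 genes past 1.5-fold in all 4 ratios. Ribosomal protein genes lay between the neighbours, with a median of 0.61 to the tip but -1.19 to the lower villus in Tg, and of 0.91 and -2.12 in FMTg.

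A smaller set was lowest in the middle: 12 of 7285 genes, or 0.165%, were at least 1.5-fold lower there than in both neighbours in each library. S100g, the calcium-binding protein calbindin-D9k of proximal intestine, led it at 461 CPM in Tg members against 1232 in the tip and 1723 in the lower villus, and at 107 CPM in FMTg members against 291 and 864. Capg, an actin-capping protein, was 2.46 and 2.60 lower than in the tip on the log2 scale in Tg and FMTg, and 0.77 and 0.75 lower than in the lower villus. Pdx1, the homeobox factor of duodenum and pancreas, stood at 22.1 CPM in Tg members against 52.6 and 38.6, and at 12.1 in FMTg members against 21.2 and 19.1. Plut, which lies antisense to Pdx1, was also in the set, and it is not stated whether reads were counted by strand. The others named were Sult6b2, Meis2, Pdlim1, Dynll1, Fam83e and Ddit4.

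Between the genotypes, 746 of the 7251 genes with at least 50 UMIs in members (10.3%) were called higher in FMTg and 480 (6.62%) lower. The median log2 ratio over all of them was 0.058. These shares of all genes are the background for every list count below. The split depends on scaling: it was 617 and 602 with TMM, 622 and 583 with DESeq2 size factors, and 631 and 579 when mitochondrial and the 20 most abundant genes were left out of the totals. In the tip 17% and 11.6% of 4908 genes were called higher and lower, and in the lower villus 9.98% and 7.55% of 7404.

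**Figure D3:**
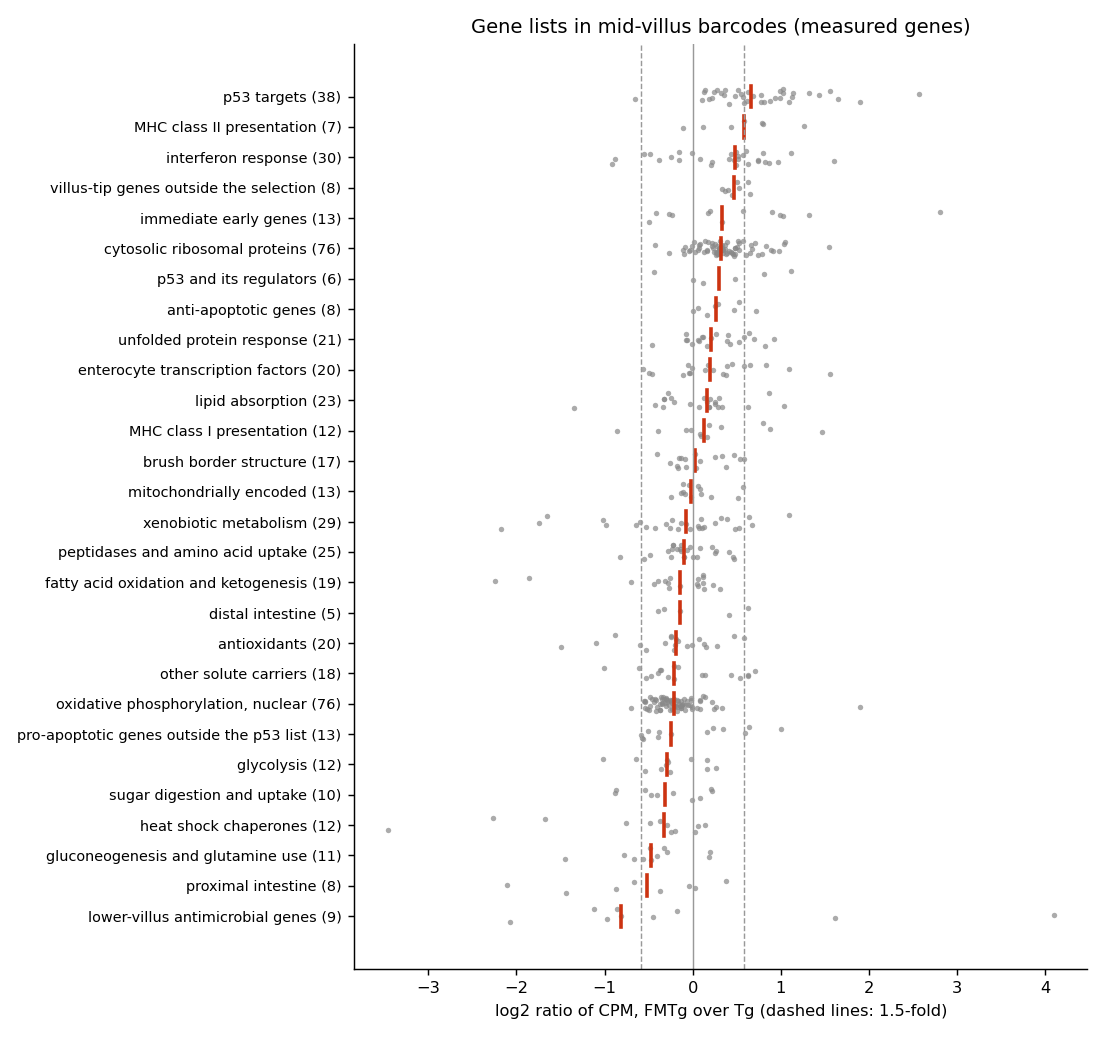
Each point is a measured gene, placed by its log2 ratio of CPM in FMTg over Tg members and grouped by list, with a red bar at the list's median. The p53 targets have a median of 0.66 and the lower-villus antimicrobial genes one of -0.82, while the brush border list lies around 0.02.

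Targets of p53 were the list with the most members called higher. Of 48 genes in the files, 38 had at least 50 UMIs, and of these 21 (55.3%) were at least 1.5-fold higher in FMTg members and 1 lower, against 10.3% and 6.62% of all genes. The median log2 ratio was 0.66, and 37 of 38 genes were above 0. It was 0.57 over 26 genes in the tip, with 13 higher and 0 lower, and 0.61 over 38 genes in the lower villus, with 20 higher and 2 lower. Summed per member, the targets ran from 990 to 6773 CPM in Tg with a median of 2475, and from 1242 to 9682 in FMTg with a median of 4691. The 2 libraries overlapped, but 90.4% of FMTg members lay above the Tg median and 11.2% of Tg members above the FMTg median.

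The cell cycle inhibitor p21 is encoded by Cdkn1a, which had the most UMIs of the list in FMTg members. Cdkn1a (chromosome 17, 29090976 to 29100727, plus strand, GRCm38) had 2166 UMIs in Tg members and 4145 in FMTg members, or 494 and 985 CPM, a log2 ratio of 0.99 (0.92 to 1.07). Per member it ran from 0 to 1834 CPM with a median of 422 in Tg, and from 48.4 to 3557 with a median of 855 in FMTg. At 3000 UMIs it was seen in 70.4% and 83.1% of members, against 16.4% and 17.2% of leukocyte barcodes. The ratio was 0.34 in the tip and 0.59 in the lower villus. The difference in response between classes has no replicate to test it.

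The promoter of Cdkn1a is shown because it alone held a match to the p53 response element consensus, in 1 of its 2 windows. The search covered the 38 listed p53 targets that had a RefSeq window (57 windows in all). Every letter of the consensus had to match, so elements with a mismatch or outside the windows were missed. That motif is 2 decamer half-sites with a spacer of up to 13 bases, searched by the published consensus, and 0.0731% of all windows (24) held it. The match lies at -73 to -42 from the start of the transcript shown, in capitals. The decamer right after the capitals misses the consensus only in its first letter, so it was not marked.
Cdkn1a, chr17:29090729-29091028, plus strand: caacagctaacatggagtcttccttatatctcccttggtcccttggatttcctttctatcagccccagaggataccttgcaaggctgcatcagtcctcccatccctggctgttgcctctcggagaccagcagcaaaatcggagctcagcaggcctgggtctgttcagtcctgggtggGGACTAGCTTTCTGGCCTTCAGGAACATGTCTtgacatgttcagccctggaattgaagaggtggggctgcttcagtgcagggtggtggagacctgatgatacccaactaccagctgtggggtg

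**Figure D4:**
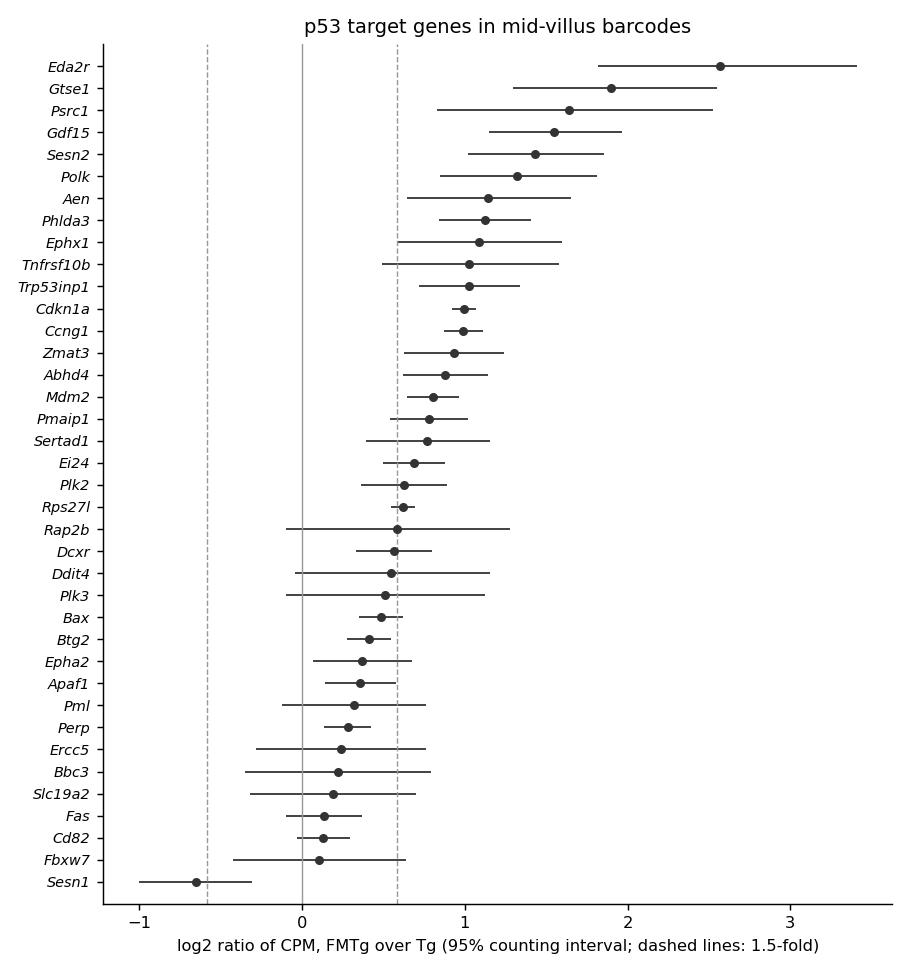
The 38 measured p53 targets are ordered by the log2 ratio of CPM in FMTg over Tg members, with 95% counting intervals and dashed lines at 1.5-fold. Eda2r lies highest at 2.57, Cdkn1a at 0.99 and Mdm2 at 0.80, and Sesn1 alone lies below the lower line at -0.65.

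The p53 feedback genes were higher as well. Mdm2 (chromosome 10, 117688875 to 117710758, minus strand) had 503 and 843 UMIs, or 115 CPM in Tg members and 200 in FMTg members, a log2 ratio of 0.80 (0.64 to 0.97). Per member it ran from 0 to 484 CPM in Tg, with a median of 98.8, and from 0 to 1587 in FMTg, with a median of 170. The 3′ reads of this assay do not show which Mdm2 alleles were intact, so the Mdm2 count does not check the genotype. Mdm4, the partner of Mdm2 in holding p53 down, was higher at 1.11 (0.91 to 1.32), from 300 and 623 UMIs. Trp53, the gene of p53 itself, had only 55 and 39 UMIs, at -0.44 (-1.07 to 0.18), an interval that includes 0. The p53-degrading ligase gene Rchy1 stood at 0.48, the deubiquitinase gene Usp7 at 0.12 and Cop1 at 0.00, none of them called. Of the 6 measured regulators 2 were higher (33.3%, against 10.3% of all genes) and 0 lower, with a median of 0.30.

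Targets that act in the cell cycle and growth arrest were among the higher ones. Ccng1, cyclin G1, had 882 and 1682 UMIs and stood at 0.99 (0.87 to 1.11), with a median of 160 CPM per member in Tg and 420 in FMTg. It was seen in 33.6% and 62.0% of members at 3000 UMIs, and in 15.7% and 23.4% of leukocyte barcodes. Gtse1, which carries p53 out of the nucleus, stood at 1.90 (1.30 to 2.55) from 29 and 104 UMIs, and Psrc1, a spindle protein, at 1.64 from 17 and 51. Sesn2, a stress-induced brake on growth signalling, stood at 1.43, while its relative Sesn1 was lower at -0.65, from 185 and 113 UMIs. Btg2, an antiproliferative gene, stood at 0.41 and was not called.

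Eda2r, a member of the TNF receptor family, had the highest ratio of the p53 list at 2.57 (1.82 to 3.41). It had 17 UMIs in 14 Tg members and 97 in 66 FMTg members. Among targets that act in cell death, Tnfrsf10b, the TRAIL receptor gene, stood at 1.03. Aen, an apoptosis-enhancing nuclease, stood at 1.14, and Pmaip1, which encodes Noxa, at 0.78. Bax, the pore-forming death protein, stood at 0.48 (0.35 to 0.62) and Bbc3, which encodes Puma, at 0.22 on 51 and 57 UMIs, and neither was called. Apaf1, the scaffold of the apoptosome, stood at 0.36, and Fas at 0.13. Among death genes outside the list, Bok was higher at 1.01 and Casp6, an executioner caspase, stood at -0.57. Of 8 measured survival genes 1 was called higher (12.5%, near the 10.3% of all genes), Bcl2l1, which encodes Bcl-xL, at 0.72.

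Other stress and repair targets were called higher too. The secreted stress cytokine gene Gdf15 had 70 and 197 UMIs and stood at 1.55 (1.15 to 1.97). Polk, a DNA polymerase that copies past damage, stood at 1.32, Phlda3, an Akt inhibitor, at 1.12, Ephx1, an epoxide hydrolase, at 1.09, Trp53inp1 at 1.03 and Zmat3, an RNA-binding protein, at 0.93. Rps27l, a ribosomal protein paralog induced by p53, had 2420 and 3572 UMIs and stood at 0.62 (0.55 to 0.70), and near-identical copies make its reads less certain.

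The p53 ratios were not the same along the class. In the members with a tip score above their lower-villus score, 27 in Tg and 78 in FMTg, the p53 median was 1.05, with Cdkn1a at 1.37, Mdm2 at 1.22, Ccng1 at 1.71 and Bax at 1.16. In those with the reverse, 125 and 88, it was 0.63, with Cdkn1a at 0.91, Mdm2 at 0.72, Ccng1 at 0.89 and Bax at 0.55. Gdf15 went the other way, at 0.96 and 1.95. So the 2 libraries differed in tip-leaning and in lower-leaning members, with 27 Tg barcodes behind the tip-leaning values. Each median covers only targets with at least 50 UMIs in those members, so the 2 medians can rest on different genes. In the tip class itself the p53 median was 0.57, over 26 genes.

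**Figure D5:**
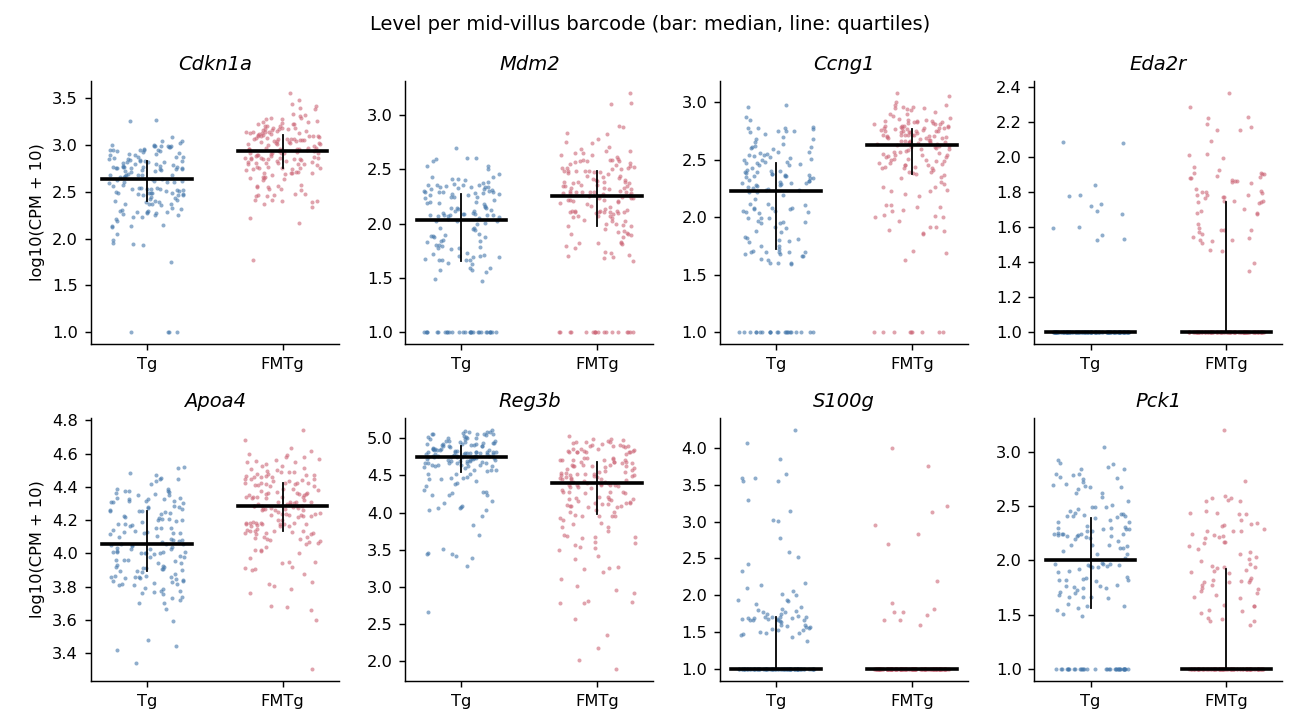
Each point is 1 member, with log10 of CPM + 10 on the vertical axis for 8 genes, Tg beside FMTg, and bars for the median and quartiles. Cdkn1a medians are 422 and 855 CPM and Reg3b medians 56352 and 24784, with overlap between the libraries in every panel.

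Of 9 measured antimicrobial genes of the lower villus, 5 were lower (55.6%) and 2 higher (22.2%) in FMTg members, with a median of -0.82. The shares over all genes were 6.62% and 10.3%. Reg3b (chromosome 6, 78370657 to 78373466, plus strand), a secreted lectin that kills bacteria, was the most abundant of them. It made up 59871 CPM of Tg members and 33945 of FMTg members, a log2 ratio of -0.82 (-0.83 to -0.81), from 262263 and 142804 UMIs. Per member it ran from 445 to 129572 CPM with a median of 56352 in Tg, and from 69.4 to 106651 with a median of 24784 in FMTg. Reg3g stood at -1.12 and Reg1 at -2.07, and reads of the Reg genes may be shared between near-identical copies. Reg3b was also found in leukocyte barcodes (1506 CPM for Tg, 629 for FMTg), and the part of free RNA in the member values was not tested. Lypd8, which keeps bacteria off the epithelium, stood at -0.86 and the microbial sensor gene Nlrp6 at -0.97.

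The size of this difference depended on which members were compared, and its cause was not tested. Over 25 other ways of choosing or scaling the members the antimicrobial median ran from -2.34 to -0.32, the latter in tip-leaning members. Reg3b stood at -0.58 in tip-leaning members, just short of 1.5-fold, which ends its call, and at -0.64 in lower-leaning members. Reg3g was -0.32 in the tip-leaning members, which also ends its call, and -0.92 in the lower-leaning members. Reg3b was lower by less in the neighbouring classes, at -0.22 in the tip and -0.30 in the lower villus.

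The dual oxidase pair went the opposite way to the lectins. Duoxa2, the maturation factor of the enzyme, had the highest ratio of all named genes, 4.10 (3.13 to 5.25), from 9 UMIs in 7 Tg members and 148 in 37 FMTg members. Duox2, the oxidase that releases hydrogen peroxide into the mucus, stood at 1.61 (1.18 to 2.06), from 60 and 176 UMIs. At 3000 UMIs Duoxa2 was seen in 0 of 152 Tg members, which allows a share of members with a UMI at that depth of up to 1.97%, and in 7.83% of FMTg members, against 0.262% and 0.418% of leukocyte barcodes. Unthinned, it was seen in 4.61% of Tg and 22.3% of FMTg members.

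Of 8 measured genes that climb towards the tip, outside the selection genes, 2 were called higher in FMTg members and 0 lower. This was 25% called higher, against 10.3% of all genes, and the median was 0.47. Apoa4, an apolipoprotein of chylomicrons, stood at 12859 CPM in Tg members and 19848 in FMTg members, a log2 ratio of 0.63 (0.61 to 0.64). Per member it ran from 2201 to 33030 CPM with a median of 11316 in Tg, and from 2017 to 55358 with a median of 19143 in FMTg. Klf4, a factor of differentiated epithelium, stood at 0.64, the keratin gene Krt20 at 0.50 and the E-cadherin gene Cdh1 at 0.52. Apoa4 and Klf4 were below 1.5-fold in each of these groups of members, at 0.21 and 0.37 in tip-leaning members and 0.51 and 0.49 in lower-leaning members.

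Of 23 measured genes of fat handling, outside the 4 used in the selection, 3 were higher and 1 lower, with a median of 0.16, not far from the 10.3% and 6.62% of all genes called in each direction. Plin3, a lipid droplet coat protein, stood at 1.04 (0.95 to 1.13), with a median of 322 CPM per member in Tg and 650 in FMTg, and Dgat2, which makes triglyceride, at 0.86. The chylomicron genes Apob and Mttp stood at 0.25 and 0.30. Lrat, which esterifies vitamin A for transport, was lower at -1.34 (-1.80 to -0.90), from 156 and 59 UMIs. The selection genes Apoa1, Fabp1, Fabp2 and Rbp2 stood at 0.35, -0.19, -0.52 and -0.29.

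Sugar genes were lower or close. Sis, sucrase-isomaltase, which splits table sugar and starch fragments, stood at 1043 CPM in Tg members and 565 in FMTg members, a log2 ratio of -0.89 (-0.96 to -0.81). Its median per member was 898 CPM in Tg and 415.5 in FMTg. Slc2a2, the GLUT2 glucose carrier of the basal side, stood at -0.87 and the fructose carrier gene Slc2a5 at -0.47. The apical glucose carrier gene Slc5a1 stood at 0.08 and Mgam, the other starch-splitting enzyme of the brush border, at 0.21. Of 10 measured sugar genes 2 were lower (20%, against 6.62% of all genes) and 0 higher, with a median of -0.32.

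Of 11 measured genes of gluconeogenesis, outside the score gene Pck1, 3 were lower (27.3%, against 6.62% of all genes) and 0 higher. Their median was -0.47. Ppargc1a, a coactivator that turns on gluconeogenesis and mitochondrial genes, stood at -1.45 (-1.74 to -1.16) and G6pc, the glucose-6-phosphatase gene, at -0.66 (-0.97 to -0.36). Mdh1, the cytosolic malate dehydrogenase, had 6312 and 4091 UMIs and stood at -0.57. Genes of fatty acid oxidation had a median of -0.14, with Pdk4, a kinase that spares glucose, at -2.24 and Angptl4, a lipoprotein lipase inhibitor, at -1.86, on 26 UMIs each in FMTg. Glycolysis had a median of -0.29, with Pgam1 at -1.02 and Eno1 at -0.64, and the median over 76 nuclear genes of oxidative phosphorylation was -0.21, with 1 higher and 1 lower. Mitochondrially encoded genes stood at a median of -0.02. Members were chosen with at most 25% mitochondrial UMIs, which bounds these levels, so this median is a description.

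The brush border itself was level. Of 17 measured structural genes 0 were called, with a median of 0.02, and the villin gene Vil1 stood at 0.08 and Pls1, plastin, at -0.18. Among 25 peptidases and amino acid carriers 1 was called lower (4%, against 6.62% of all genes), Slc6a20a, a proline carrier, at -0.82. Anpep, aminopeptidase N, stood at 0.08 and Slc6a19, the main neutral amino acid carrier, at 0.47.

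Transcription factors of the enterocyte were higher where called, 4 of 20 (20%), against 10.3% of all genes called higher. Hnf4a, a nuclear receptor that maintains enterocyte genes, had 1192 and 2029 UMIs and stood at 0.83 (0.72 to 0.93), with a median of 248 CPM per member in Tg and 446 in FMTg. It stood at 0.21 in the tip and 0.12 in the lower villus, and at 0.51 in tip-leaning members. Prdm1, known as Blimp1, stood at 1.55 on 27 and 76 UMIs, Nr1h3, the oxysterol receptor LXR alpha, at 1.09 and Gata5 at 0.65.

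RNA of MHC class II presentation genes was higher in FMTg members, with 3 of 7 genes called, 0 lower and a median of 0.58. Of all genes 10.3% were called higher and 6.62% lower. In the tip 1 of 5 class II genes was higher and 1 lower, and in the lower villus 2 of 7 were higher and 0 lower. H2-Aa stood at 180 CPM in Tg members and 431 in FMTg members, a log2 ratio of 1.26 (1.14 to 1.39). Cd74, the invariant chain, had 4289 and 7178 UMIs and stood at 0.80, and H2-Eb1 at 0.79. At 3000 UMIs H2-Aa was seen in 30.9% and 55.4% of members, and in 31.9% and 32.6% of leukocyte barcodes, where B cells and macrophages express it. The Tg share is therefore no higher than in barcodes that hold such cells. The summed B cell list was 38.1 CPM in Tg members and 51.8 in FMTg members, against 3530 and 7794 in leukocyte barcodes. The part of free RNA in the class II values was not tested. Of 12 class I genes 3 were higher and 1 lower, H2-T22 at 1.46, H2-T23 at 0.88, the peptide pump gene Tap1 at 0.80 and H2-T3 at -0.85, and reads of H2-T genes may be shared between copies.

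Interferon-induced genes were mixed, with 10 of 30 higher (33.3%), 2 lower (6.67%) and a median of 0.48. Of all genes 10.3% were called higher and 6.62% lower. Ddx60 stood at 0.97 (0.82 to 1.12), Oasl2 at 0.86, Ifit1 at 0.80 and Isg15 at 0.74. Igtp and Gbp7, GTPases induced by interferon gamma, stood at -0.91 and -0.89. Rsad2 stood at 1.11, but 41.7% of its Tg and 35.1% of its FMTg UMIs lay in 1 barcode each. Summed per member the list had medians of 2510 CPM in Tg and 2876 in FMTg, and the highest members reached 19465 and 25961.

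Of 12 chaperone genes 4 were lower (33.3%) and 0 higher, with a median of -0.33. Of 20 antioxidant genes 4 were lower (20%) and 0 higher, with a median of -0.19. Of all genes 6.62% were called lower. Hspa1a, an inducible Hsp70 gene that also responds to tissue handling, had 149 UMIs in 29 Tg members and 13 in 9 FMTg members, at -3.46 (-4.40 to -2.64), and its near-identical copy Hspa1b stood at -2.26. The abundant chaperone gene Hspa8 stood at -0.29. Prdx1, a peroxiredoxin, had 4962 and 2229 UMIs and stood at -1.10 (-1.17 to -1.02), Glrx, glutaredoxin, at -0.88 and the metallothionein gene Mt1 at -1.49. Immediate early genes, which also respond to handling, did not follow the chaperones: 5 of 13 were higher (38.5%, against 10.3% of all) and 0 lower. Socs3 stood at 2.80, Egr1 at 1.32, Dusp1 at 1.02 and Zfp36 at 0.90, while Jun stood at -0.24 and Fosb at -0.50. Of 21 genes of the unfolded protein response 4 were higher (19.0%, against 10.3% of all) and 0 lower. Among the higher ones were Xbp1 at 0.82 and the chaperone gene Hspa5 at 0.69.

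Drug-metabolising genes were mixed in these tamoxifen-treated mice, with 3 of 29 higher (10.3%) and 7 lower (24.1%). Of all genes 10.3% were called higher and 6.62% lower, so only the share called lower stood apart from that of all genes. Cyp3a11, a drug-oxidising cytochrome, stood at 400 CPM in Tg members and 855 in FMTg members, 2.14-fold higher (log2 interval 1.01 to 1.18). Its log2 ratio was 0.56 in tip-leaning members, below 1.5-fold. Cyp3a13 was more abundant, with medians per member of 1243 CPM (Tg) and 1747 (FMTg), against 330 and 696 for Cyp3a11. Gstp1, a glutathione transferase with the near-identical copy Gstp2, had 1055 and 303 UMIs and stood at -1.74. Gstm3 stood at -2.18 and Akr1c19 at -1.65 on fewer than 100 UMIs each.

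For the proteins of the cytosolic ribosome, 14 of 76 genes were higher in FMTg members (18.4%, against 10.3% of all) and 0 lower. Their median was 0.32. Rps27 stood at 1.04 and Rps29 at 0.98, and many of these genes have processed copies that can take their reads. In lower-villus barcodes 74 of the 76 were called higher, with a median of 1.20. Cell cycle genes were almost silent: 1 of 20 had 50 UMIs, Pcna, at -0.22 with an interval of -0.79 to 0.33.

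Of 8 genes of the proximal intestine 4 were lower (50%, against 6.62% of all genes) and 0 higher, with a median of -0.52. Of 5 distal genes 1 was called higher (20%, against 10.3% of all genes), Slc51b, a bile acid carrier subunit, at 0.62. S100g had 2019 UMIs in 68 Tg members and 450 in 16 FMTg members, at -2.11 (-2.26 to -1.96), but single barcodes held 23.9% and 41.1% of them. At 3000 UMIs S100g was seen in 13.8% of Tg and 4.82% of FMTg members, against 14.7% and 4.07% of leukocyte barcodes, and these shares are not read as a difference in detection. Slc40a1, the iron exporter ferroportin, had 355 UMIs in 54 Tg members and 126 in 18 FMTg members, at -1.44. Pdx1 stood at -0.87. Without members that had a UMI of S100g, which left 84 and 150, the proximal median was 0.01. S100g is itself on the proximal list, so this median does not check that list. In the same members G6pc stood at -0.28, below 1.5-fold, and Sult6b2, at -1.42 over all members, turned to 0.30. The length of intestine taken into each suspension is not given, and its part in these differences was not tested.

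Among the other named genes with the highest ratios, B3galt5, a sugar transferase of blood group chains, had 14 and 213 UMIs and stood at 3.99 (3.21 to 4.88), and Chst4, a sulfotransferase of mucin sugars, stood at 3.24. Socs3, a feedback inhibitor of cytokine receptors that is also on the immediate early list, had 76 UMIs in 53 Tg members and 508 in 121 FMTg members, at 2.80 (2.45 to 3.17). Phlda1 stood at 2.96, Qsox1, a secreted thiol oxidase, at 2.78, Ubd, a ubiquitin-like protein induced by cytokines, at 2.78 and Tgm2, tissue transglutaminase, at 2.66 from 47 and 286 UMIs. Saa1, serum amyloid A, stood at 2.82, but 55.9% of its FMTg UMIs lay in 1 barcode. 2010109I03Rik, which stood at 2.95, was far higher in tip barcodes, at 610 and 1591 CPM against 5.25 and 40.6 in members.

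The hormone gene Sct, secretin, needs its own account. It had 210 and 2491 UMIs and stood at 3.63 (3.42 to 3.84), but single barcodes held 39.0% and 43.7% of them, and the enteroendocrine list moved with it at 76.5 and 745 CPM. Without the 3 Tg and 5 FMTg members that had 5 UMIs of that list, Sct stood at 0.59, and without barcodes of high doublet score at -0.12.

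Among the named genes with the lowest ratios, Slc28a1, a pyrimidine nucleoside carrier, had 201 and 37 UMIs and stood at -2.38 (-2.93 to -1.87). Rec8, a meiotic cohesin subunit, had 192 UMIs in 94 Tg members and 27 in 17 FMTg members, at -2.77 (-3.41 to -2.19). Foxq1, a forkhead factor, stood at -1.93, Fam13a at -1.85 and Snrpn, an imprinted splicing gene, at -1.81.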

How the data were processed

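RNA of single cells from 1 Tg and 1 FMTg small intestine was counted per gene and cell barcode. The deposited files hold raw UMI counts, whole numbers with no normalization, for 31053 genes. Per the submitters' processing notes, reads passed through Cell Ranger 3.0 on mm10 after CASAVA 1.8.1. Neither the annotation release nor strand-specific counting is stated in any label or file.

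Members and gene lists were chosen with earlier results of these data known. Counts were summed over members of a library and divided by their total UMIs, free RNA was not removed, and the barcodes with the highest Scrublet doublet scores (scanpy 1.11.5, 0.8% per 1000 barcodes) were left out as an alternative only. Genes needed 50 UMIs over both libraries to count as measured. That minimum was counted anew in each choice of members, so list medians there can rest on different genes. Intervals are exact (Clopper-Pearson, and conditional binomial for ratios) and cover counting error only, and a count of 0 was bounded with 3 counts. Python 3.11.15, scipy 1.17.1 and R 4.3.3 were used, with scaling factors of edgeR 4.0.16 and DESeq2 1.42.0 as alternatives. The calculation was tested on simulated data. Positions come from GENCODE on GRCm38 and promoter windows from RefSeq.

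Named genes were the 12 highest and 12 lowest ratios with at least 100 UMIs and UMIs in 20 barcodes of the higher library, the 15 highest and 10 lowest in the middle against both neighbours, up to 4 most abundant and 4 largest ratios of each list, and the score genes, Mdm2, Trp53 and Cdkn1a. Other genes of a list were named for their role after their values were seen, and 4 genes that the lists hold are not reported here singly. Alternatives covered the mitochondrial, UMI and lipid limits, the scores, doublets, scaling, equal weight per barcode and the gene minimum. Another 6, chosen after the data were seen, limited the members by enteroendocrine or goblet markers, depth, tip or lower-villus lean, or S100g. No test was made, since each genotype has 1 library.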

Additional observations from a re-analysis of the deposited data

Results flagged for a closer look

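For 5 genes the libraries differed by at least 1.5-fold in one direction in mid-villus members and in the other direction in lower-villus barcodes. With 1 library per genotype these differences were not tested. Klf4, a factor of differentiated epithelium, had a log2 ratio of 0.64 in members and -0.66 in lower-villus barcodes. The phosphatase gene Dusp1 stood at 1.02 and -0.63, and the carnitine carrier gene Slc22a5 at 0.62 and -1.30. Hspe1, a mitochondrial chaperone, stood at -0.76 in members and 0.82 in lower-villus barcodes. Sct stood at 3.63 and -2.33, and at 0.59 in members without the 3 Tg and 5 FMTg barcodes that had 5 UMIs of enteroendocrine markers.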

How the results depend on the processing

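Of 119 named genes past 1.5-fold, 14 changed sign in at least 1 of 25 alternatives, of which 6 were chosen after the data were seen, and so did 14 of 29 list medians, though neither of the 2 past 1.5-fold. The share of members was 27.0% in Tg and 32.1% in FMTg when the mid-villus score had to be 1.5 times the next, 33.9% and 36.3% with scores at 3000 UMIs, and 30.6% in FMTg at a 50% mitochondrial limit. Genes higher and lower numbered 85 and 64 at a 10% mitochondrial limit, which left 6 and 3 members, 1126 and 760 with 20 UMIs per gene, and 339 and 196 with 200. Genes highest in the middle numbered 1 at the 10% limit, 87 at 50%, 29 with 10000 UMIs per barcode and 8 with a 5% lipid share. Genes lowest there numbered 0 at the 10% limit and with a 5% lipid share, 20 with score means within each library, 19 with equal gene weight, 26 with the 1.5 margin and 19 without high doublet scores. The p53 median was 1.25 at the 10% limit and 1.05 in tip-leaning members.

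At the 10% limit Ada turned to -0.077, Apoa4 to -1.50, Cyp3a11 to -0.83, H2-T23 to -0.68, Hnf4a to -0.21, Hspa5 to -1.34 and Prdx1 to 0.20, with few barcodes left. Ada was also at -0.053 with the 1.5 margin, -0.32 in tip-leaning and -0.021 in lower-leaning members, Cybrd1 at 0.72 (50% limit) and 1.77 (tip-leaning), Reg3a at 1.45 (tip-leaning), Mcm7 at 0.42 (50% limit) and 0.54 (5% lipid share), Fam83e at -0.26 (5% lipid share), Meis2 at 0.17 (3000 UMIs), Sct at -0.12 (doublets) and Sult6b2 at 0.30 (without S100g). The cause was not tested. No paired analysis was possible because each group has 1 library.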
